A study of Homo sapiens with 12 samples.

Results

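The genes described here are 48 genes of G2 phase and mitosis, chosen by name with earlier results of these data known. Of these, 46 had a usable probe set among the 11963 genes measured, and NUF2 and ANLN were not analysed here. Each gene was represented by its probe set with the highest mean signal over all arrays. The genes fall into 8 classes by function: 8 kinases and CDC25 phosphatases, 5 spindle checkpoint genes, 4 cyclins, 9 kinesins, 4 centromere and kinetochore genes, 5 genes of anaphase ubiquitination and chromosome separation, 7 spindle and cytokinesis genes, and 4 chromosome and proliferation genes. All 46 lay in the upper part of the signal range, at the 50.4th to 98.0th percentile of mean signal over all genes.

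RCC4, an established clear cell renal carcinoma line without functional VHL, was transfected with a non-targeting siRNA (siNT) or with siRNA against WWTR1 (siTAZ), which encodes the Hippo pathway coactivator TAZ. After 2 days of siRNA the cells received DMSO (vehicle) or 1 µM erastin, an inhibitor of the cystine importer SLC7A11 that triggers ferroptosis, for 7 hours. The 4 groups were therefore siNT with vehicle, siNT with erastin, siTAZ with vehicle and siTAZ with erastin, with 3 Affymetrix 3′ arrays in each. All groups share the same line and a transfection, and the labels do not say how many siRNA sequences were used. The submitters call the replicates biological triplicates; if they were not separate cultures, the p-values measure only the spread between these samples. In a bulk sample, fewer cells in G2 and mitosis and less RNA per such cell cannot be told apart.

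Entry into mitosis is driven by CDK1 bound to cyclin B, which WEE1 and PKMYT1 hold inactive and CDC25 phosphatases activate. Aurora and Polo-like kinases and kinesin motors then build the spindle, while the checkpoint proteins at unattached kinetochores block CDC20 until every chromosome is attached. The anaphase-promoting complex (APC/C) with CDC20 then ubiquitinates securin and cyclin B, separase cuts cohesin, and the central spindle directs cytokinesis. Many of these genes are transcribed mainly in G2 through the MuvB complex with MYBL2 (B-Myb) and FOXM1, and through the CCAAT-binding factor NF-Y, so their RNA is used as a sign of dividing cells.

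WWTR1 was lower on every siTAZ array. Its log2 signal was 12.28 ± 0.06 (SD, n = 6) on the siNT arrays and 9.25 ± 0.14 (SD, n = 6) on the siTAZ arrays, which left 12.2% of the control signal (two-sided exact permutation p = 0.00216, the smallest that 6 against 6 arrays can give). The array medians were 6.48 to 6.54 and the correlations between arrays of a group were 0.9955 to 0.9985. The renal markers PAX8, at 10.51 to 10.68 in the group means, and CDH6, at 11.86 to 12.63, were bright, while LRP2 and CUBN of mature proximal tubule were at 2.78 to 2.87 and 4.42 to 4.53. The mean signal of the 9 renal markers was 8.94 to 9.06 on the 12 arrays, but its members moved in both directions: for siTAZ 1 fell and 3 rose with vehicle, and 2 fell and 3 rose under erastin. The group mean of KRT18 was 10.49 in siNT and 9.43 in siTAZ cells with vehicle, and that of CDH6 11.86 and 12.63. Lists of leukocyte (9 genes), endothelial (7), erythroid (4) and fibroblast (7) markers had mean log2 signals of 3.91 to 5.19 on every array, and limma called 0 of them for siTAZ in either medium.

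With vehicle, 34 of the 46 genes fell in siTAZ cells and 0 rose, by limma at a p under 0.05 after Benjamini-Hochberg adjustment across the 11963 genes. Over all genes 13.9% were called lower and 14.7% higher in that comparison. The falls were small: the median log2 fold change of the 46 genes was −0.30, which is 81.4% of the control signal, against −0.01 over all genes, and the range was −0.77 to 0.17. A value below 0 was found for 41 of the 46, against 53.2% of all genes. The 3 siTAZ vehicle arrays were all below the 3 siNT vehicle arrays for 33 members, against 22.4% of all genes, and all above them for 1, MKI67, against 21.4%. An exact permutation test of 3 arrays against 3 cannot give a p under 0.10, so such a test was not used for single genes.

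**Figure D1:**
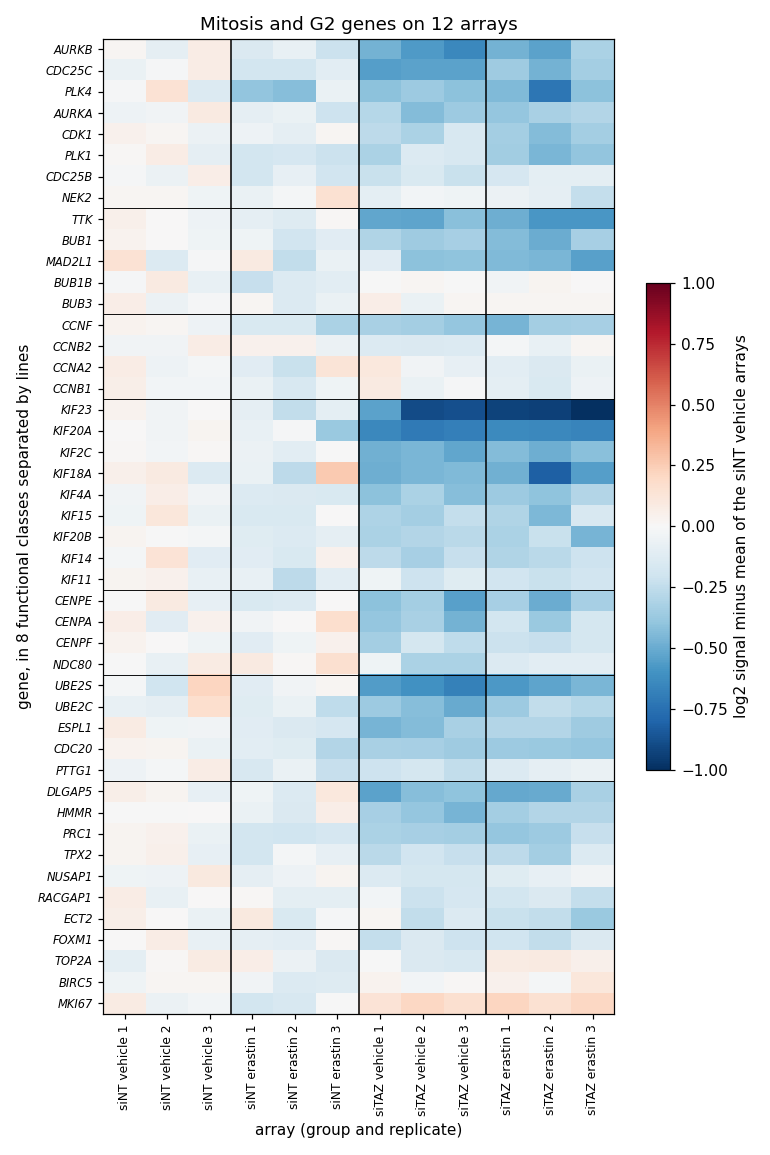
Log2 signal of the 46 genes (rows, in their 8 classes) on each of the 12 arrays (columns), as the difference from the mean of the 3 siNT vehicle arrays on a colour scale from −1 to 1. Blue fills most rows on the 6 siTAZ arrays, deepest for KIF23, KIF20A and UBE2S. On these arrays BUB1B, BUB3, CCNA2, CCNB1 and BIRC5 stay pale and MKI67 is a pale red.

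The promoters were searched for letters bound by known regulators of G2 transcription. RefSeq (GRCh38.p14) held a promoter of 300 bases, from 250 before to 50 after the annotated start, for 40 of the 48 genes. The search covered both strands for TTTGAA and TTCGAA, the core of the element that MuvB binds, and for CCAAT, the letters NF-Y binds. TTCGAA reads the same on both strands, and TTTGAA and CCAAT can overlap. TTTGAA or TTCGAA was found in 29 of the 40 promoters (72.5%), against 16.6% of 27305 promoters of the same length. CCAAT was found in 30 (75.0%), against 35.7% of all promoters, and both kinds in 23 (57.5%), against 6.58%. The 120 bases just before the annotated start are shown for 5 genes that fell with vehicle (KIF23, KIF20A, CDC20, PLK1, PRC1) and for 3 that were not called there (CCNB1, BUB1B, MKI67), because the letters stand in both kinds of promoter. Each is written 5′ to 3′ on the gene's strand, with TTTGAA and CCAAT (or its reverse, ATTGG) in capitals.
KIF23, chr15:69414229-69414348, plus strand: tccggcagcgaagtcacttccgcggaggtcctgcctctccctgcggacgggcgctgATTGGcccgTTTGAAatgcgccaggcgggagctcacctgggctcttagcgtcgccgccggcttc
KIF20A, chr5:138178992-138179111, plus strand: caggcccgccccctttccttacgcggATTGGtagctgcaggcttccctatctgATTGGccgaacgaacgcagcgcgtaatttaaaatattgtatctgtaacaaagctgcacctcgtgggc
CDC20, chr1:43358861-43358980, plus strand: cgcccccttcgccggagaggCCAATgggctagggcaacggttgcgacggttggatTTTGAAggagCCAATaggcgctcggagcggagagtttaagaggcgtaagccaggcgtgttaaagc
PLK1, chr16:23678769-23678888, plus strand: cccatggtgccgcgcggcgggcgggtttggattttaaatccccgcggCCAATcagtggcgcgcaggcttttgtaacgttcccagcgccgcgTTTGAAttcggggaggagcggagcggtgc
PRC1, chr15:90994536-90994655, minus strand: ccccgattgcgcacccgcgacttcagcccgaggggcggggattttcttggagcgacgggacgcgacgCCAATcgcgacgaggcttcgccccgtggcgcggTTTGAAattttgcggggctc
CCNB1, chr5:69167030-69167149, plus strand: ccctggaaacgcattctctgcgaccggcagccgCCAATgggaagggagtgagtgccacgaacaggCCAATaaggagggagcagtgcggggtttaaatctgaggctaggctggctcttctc
BUB1B, chr15:40160949-40161068, plus strand: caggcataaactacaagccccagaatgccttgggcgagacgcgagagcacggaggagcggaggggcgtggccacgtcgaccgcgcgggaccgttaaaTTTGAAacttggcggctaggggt
MKI67, chr10:128126424-128126543, minus strand: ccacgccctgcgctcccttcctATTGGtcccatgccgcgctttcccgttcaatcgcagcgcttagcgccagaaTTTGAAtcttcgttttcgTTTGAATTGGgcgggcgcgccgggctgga
KIF23, CDC20, PLK1 and PRC1 hold TTTGAA together with CCAAT letters within these bases, and so does MKI67, where a TTTGAA runs into a reverse CCAAT. KIF20A and CCNB1 both hold 2 CCAAT letters and no TTTGAA in these 120 bases, although KIF20A fell and CCNB1 did not pass the test. BUB1B holds TTTGAA and no CCAAT there. Over the whole window, TTTGAA or TTCGAA stood in 21 of 29 promoters of members that fell with vehicle (72.4%) and in 6 of 9 of measured members that were not called (66.7%). CCAAT stood in 22 of the 29 (75.9%) and in 8 of the 9 (88.9%). CDC25B, CDC25C, CENPE and KIF2C fell with vehicle and held neither kind in the window of the start listed first. Their stretches are not shown. These counts were not tested, and a match is not a binding site.

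The kinesins, the motors that slide and bundle spindle microtubules, held the 2 largest falls, and 8 of 9 fell with vehicle, with a class median of −0.38. KIF23, the motor of the centralspindlin complex of the midbody, had log2 signals of 8.91, 8.84 and 8.88 on the siNT vehicle arrays and 8.34, 7.98 and 8.0 on the siTAZ vehicle arrays. The groups were well apart, and siTAZ replicate 1 was the highest of its group. The log2 fold change was −0.77 ± 0.09 (SE; limma adjusted p = 4.53e-05), or 58.4% of control. KIF20A, which carries the Aurora B complex to the central spindle, went from 10.18, 10.14 and 10.20 to 9.53, 9.47 and 9.49. Its 2 groups were tight, and the fall was −0.68 ± 0.08 (limma adjusted p = 4.43e-05). KIF2C, a microtubule depolymerase that corrects faulty attachments, went from 10.87, 10.83 and 10.87 to 10.38, 10.40 and 10.34, a fall of −0.48 ± 0.05 (limma adjusted p = 1.48e-05). KIF18A, which dampens chromosome movements at the metaphase plate, was the least precise member, with a within-group SD of 0.172, and fell by 0.46 on the log2 scale (SE 0.12, limma adjusted p = 0.0128). The chromokinesin KIF4A fell by 0.38, KIF15, which supports the bipolar spindle, by 0.30, and KIF20B and KIF14, motors of cytokinesis, by 0.30 and 0.28. KIF11, the main motor of spindle bipolarity, was the exception, at −0.13 ± 0.06 with a 95% interval of −0.27 to 0.01 (limma adjusted p = 0.178).

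Of the 8 kinases and CDC25 phosphatases, 7 fell with vehicle, with a median of −0.30. AURKB, the kinase of the chromosomal passenger complex, had 9.08, 8.97 and 9.14 on siNT arrays and 8.59, 8.5 and 8.42 on siTAZ arrays. All siTAZ values were lower, and the log2 fold change was −0.56 ± 0.07 (limma adjusted p = 9.44e-05), or 67.8% of control. CDC25C, a phosphatase that activates CDK1, went from 7.91, 7.96 and 8.05 to 7.42, 7.44 and 7.44. That is −0.54 ± 0.06 (limma adjusted p = 1.69e-05), and the siTAZ arrays lay close together. PLK4, which starts centriole duplication, fell by 0.39, AURKA, the spindle pole kinase, by 0.35, CDK1 by 0.25, and PLK1 and CDC25B by 0.20 each. NEK2, a kinase of centrosome separation, was not called, at −0.06 ± 0.07 (95% interval −0.20 to 0.09).

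The spindle checkpoint genes were divided on their brightest probe sets. TTK, the kinase at the top of the checkpoint, went from 9.62, 9.57 and 9.52 to 9.05, 9.04 and 9.15, a log2 fold change of −0.50 ± 0.06 (limma adjusted p = 3.74e-05). BUB1, the kinetochore kinase, went from 9.15, 9.12 and 9.07 to 8.81, 8.76 and 8.78, or −0.33 ± 0.06 (limma adjusted p = 0.00105). MAD2L1, which binds and holds CDC20, was called at −0.31 ± 0.10 (limma adjusted p = 0.0387), but its arrays overlapped, at 10.57, 10.29 and 10.41 against 10.31, 10.01 and 10.02. The other members of the class, BUB1B (BubR1) and BUB3, which are part of the complex that blocks the APC/C, were at 0.00 ± 0.06 and 0.01 ± 0.06. Their 95% intervals, −0.12 to 0.13 and −0.13 to 0.14, leave out falls of the size seen for TTK and BUB1, on the brightest probe set of each. On its second brightest probe set BUB3 was called lower with vehicle, at −0.22 (limma adjusted p = 0.0331). That of BUB1, which is dim, was not called, at −0.13 (limma adjusted p = 0.276). For BUB1 and BUB3 the division thus depended on the probe set.

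Of the 4 cyclins 1 fell, with a class median of −0.07. Cyclin B1 (CCNB1), the mitotic partner of CDK1, had 11.14, 11.05 and 11.05 on siNT vehicle arrays and 11.17, 11.01 and 11.07 on siTAZ vehicle arrays. The groups overlapped fully, and the log2 fold change was 0.01 ± 0.06 with a 95% interval of −0.12 to 0.13. Cyclin A2 (CCNA2), which acts in S phase and G2, was at 0.00 ± 0.08 (95% interval −0.19 to 0.18). Cyclin B2 (CCNB2) was just outside the threshold, at −0.14 ± 0.05 (limma adjusted p = 0.0784), with all siTAZ arrays below the siNT arrays. The one that fell was CCNF, an F-box protein named for its cyclin fold and not a CDK partner, by 0.35 (SE 0.06, limma adjusted p = 0.000862).

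All 4 measured centromere and kinetochore genes fell with vehicle. CENPE, a kinetochore motor, went from 8.76, 8.85 and 8.68 to 8.35, 8.42 and 8.22, and the log2 fold change was −0.43 ± 0.07 (limma adjusted p = 0.000767). CENPA, the histone H3 variant that marks centromeres, fell by 0.40 and CENPF, an outer kinetochore protein, by 0.26. NDC80, the microtubule-binding subunit, was called at −0.23 ± 0.08 (limma adjusted p = 0.0423), although siTAZ replicate 1, at 9.53, lay inside the siNT range of 9.50 to 9.66.

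All 5 genes of anaphase ubiquitination and separation fell with vehicle, with the lowest class median, −0.41. UBE2S, the enzyme that extends ubiquitin chains for the APC/C, had 10.87, 10.69 and 11.10 on siNT arrays and 10.33, 10.28 and 10.21 on siTAZ arrays. The siNT arrays were the more spread and none overlapped the siTAZ arrays, and the log2 fold change was −0.62 ± 0.09 (limma adjusted p = 0.000206). UBE2C, which starts those chains, fell by 0.43, ESPL1 (separase) by 0.41, the APC/C activator CDC20 by 0.33 and PTTG1 (securin) by 0.21. PTTG1 was the brightest of them, at 12.46, 12.49 and 12.59 against 12.31, 12.34 and 12.27.

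Of the 7 spindle and cytokinesis genes, 5 fell. DLGAP5, a stabiliser of kinetochore fibres, fell by 0.45, HMMR, a spindle pole protein, by 0.39, PRC1, which bundles the microtubules of the central spindle, by 0.33 and TPX2, the activator of Aurora A, by 0.23. NUSAP1, a microtubule-stabilising protein, was just inside the threshold at −0.16 ± 0.06 (limma adjusted p = 0.0489). A pair of cytokinesis genes was not called: RACGAP1, the partner of KIF23 in centralspindlin, was at −0.14 ± 0.06 (limma adjusted p = 0.154) and ECT2 at −0.12 ± 0.08 (limma adjusted p = 0.336).

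Of the 4 chromosome and proliferation genes 1 fell, with a class median of −0.05. FOXM1, the transcription factor of G2 genes, fell by 0.20 (SE 0.06, limma adjusted p = 0.0227), from 9.92, 9.99 and 9.84 to 9.68, 9.77 and 9.71. TOP2A, which untangles sister chromatids, was at −0.11 ± 0.07, and BIRC5 (survivin), the partner of AURKB in the passenger complex, at 0.01 ± 0.05 (95% interval −0.11 to 0.13). MKI67, the proliferation marker Ki-67, was higher on all siTAZ vehicle arrays, at 8.37, 8.44 and 8.40 against 8.32, 8.18 and 8.21. Its log2 fold change of 0.17 ± 0.06 did not pass the threshold (limma adjusted p = 0.0624).

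**Figure D2:**
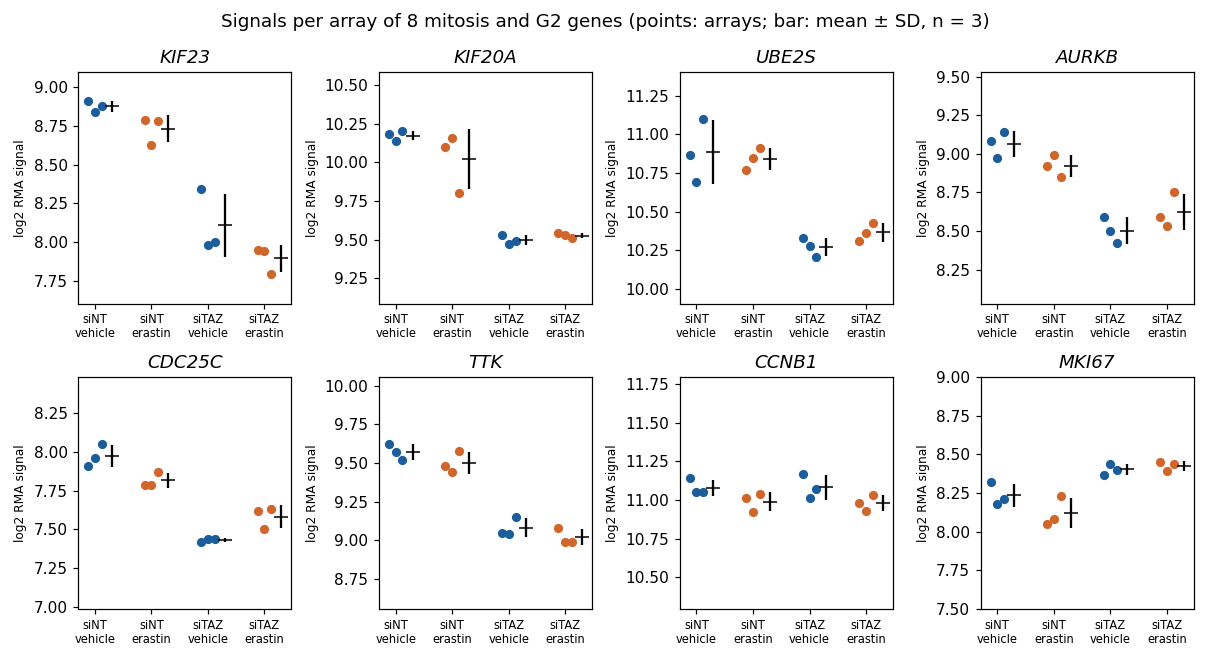
Log2 signals of 8 genes on each array (points; blue vehicle, orange erastin) by group, with the group mean and SD (n = 3) beside them; all panels span the same number of log2 units. The siTAZ arrays of KIF23, KIF20A, UBE2S, AURKB, CDC25C and TTK lie below all siNT arrays, those of CCNB1 overlap them, and those of MKI67 lie above them.

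Under erastin, where different arrays were compared, 24 of the 46 genes fell in siTAZ cells and 1, MKI67, rose, against 12.6% lower and 15.6% higher over all genes. The median log2 fold change was −0.20, or 86.9% of the siNT erastin signal, against 0.01 over all genes, and the range was −0.84 to 0.31. A value below 0 was found for 39 of the 46, against 48.5% of all genes. The siTAZ arrays were all below the siNT arrays for 30 members, against 17.7% of all genes, and all above them for BIRC5, BUB1B and MKI67, against 21.1%. Of the 34 members that fell with vehicle, 23 fell under erastin as well. The matching share over all genes was not counted, so this overlap is not read as particular to the members. ECT2, at −0.25 ± 0.08 (limma adjusted p = 0.0353), was called lower under erastin but not with vehicle.

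Kinesins gave the 3 largest falls under erastin, with 6 of 9 called. KIF23 had 8.79, 8.63 and 8.78 on siNT erastin arrays and 7.95, 7.94 and 7.79 on siTAZ erastin arrays. This was −0.84 ± 0.09 (limma adjusted p = 2.56e-05), or 55.8% of the siNT signal. KIF18A followed at −0.59 ± 0.12 (limma adjusted p = 0.00295) and KIF20A at −0.49 ± 0.08 (limma adjusted p = 0.000544). KIF20A had a low siNT replicate 3, at 9.80 against 10.10 and 10.16, and its siTAZ arrays were at 9.54, 9.53 and 9.51. KIF15, KIF14 and KIF11 were not called, at −0.20, −0.18 and −0.05.

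The kinases AURKB (−0.30), CDK1 (−0.33), AURKA (−0.22) and PLK1 (−0.21) and the phosphatase CDC25C (−0.23) fell under erastin, while PLK4 (−0.23), NEK2 (−0.15) and CDC25B (0.02) were not called. In the checkpoint class the division seen with vehicle was seen again on the brightest probe sets. TTK (−0.48), MAD2L1 (−0.41) and BUB1 (−0.30) fell, and BUB1B and BUB3 were at 0.16 ± 0.06 (limma adjusted p = 0.0524) and 0.08 ± 0.06. On the second brightest probe set, however, BUB3 was called lower, at −0.24 (limma adjusted p = 0.0231). The second of BUB1, which is dim, was not called, at 0.08 (limma adjusted p = 0.501). Of the cyclins CCNF fell by 0.18, and CCNB1, CCNA2 and CCNB2 were at −0.01, −0.03 and −0.04. CENPE and CENPA fell by 0.29 each and CENPF by 0.18, while NDC80 was not called at −0.21 ± 0.08 (limma adjusted p = 0.0671).

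Of the anaphase genes UBE2S (−0.48), CDC20 (−0.20) and ESPL1 (−0.17) fell under erastin. UBE2C, at −0.15 ± 0.08 with a 95% interval of −0.32 to 0.02, and PTTG1, at 0.06 ± 0.06, were not called. Of the spindle and cytokinesis genes DLGAP5 (−0.42), HMMR (−0.27) and ECT2 (−0.25) fell, and PRC1 (−0.14), TPX2 (−0.15), RACGAP1 (−0.13) and NUSAP1 (−0.04) were not called. FOXM1 was not called at −0.13 ± 0.06. MKI67 had 8.05, 8.08 and 8.23 on siNT erastin arrays and 8.45, 8.39 and 8.44 on siTAZ erastin arrays, a rise of 0.31 ± 0.06 (limma adjusted p = 0.00257).

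**Figure D3:**
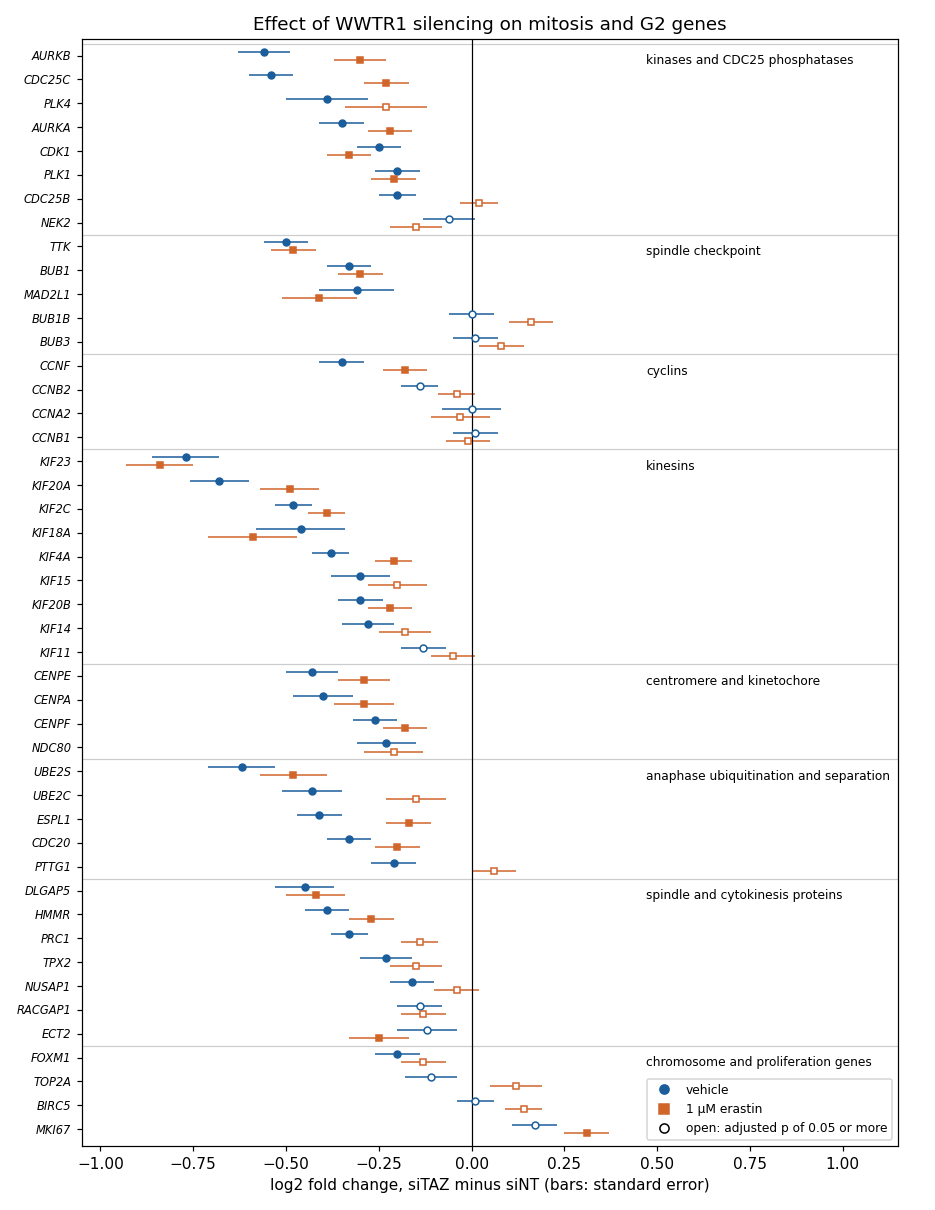
Log2 fold change of siTAZ against siNT for each of the 46 genes with vehicle (blue circles) and under 1 µM erastin (orange squares), with the standard error as bars and open symbols where the limma adjusted p was 0.05 or more. Most symbols lie left of 0, KIF23 lowest in both media, and the cyclins apart from CCNF, BUB1B, BUB3, BIRC5 and MKI67 lie at or right of it or close to it.

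A sign of RNA quality differed between the erastin groups. The actin 3′ minus 5′ control signal was 2.26 ± 0.69 (SD, n = 3) in siNT and 3.25 ± 0.33 (SD, n = 3) in siTAZ cells under erastin, against 2.68 ± 0.28 and 2.65 ± 0.04 with vehicle, while that of GAPDH was 0.15 to 0.20 in all groups. On the single erastin arrays the actin value was 2.824, 2.47 and 1.491 in siNT and 3.009, 3.629 and 3.115 in siTAZ cells. The siNT erastin replicate 3 was thus the lowest of all 12 arrays. With the actin signal as a covariate, 12 members fell and MKI67 rose under erastin, with a median of −0.18. Of the 25 members called in the main fit, 12 kept their call, MKI67 among them. UBE2C, not called in the main fit, was called lower with the covariate, at −0.31 (limma adjusted p = 0.0399). The matching shares over all genes were not counted. With the covariate the fall of KIF18A was −0.25 (limma adjusted p = 0.145), that of CENPA −0.12 (limma adjusted p = 0.385) and that of CENPE −0.14 (limma adjusted p = 0.29). With vehicle, where the actin values were alike, the covariate gave 34 falls and 1 rise, that of MKI67.

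The effect of siTAZ was not shown to differ between the media. The interaction, the effect of siTAZ under erastin minus that with vehicle, gave 0 called members and 0 called genes by limma (0.0%). At an unadjusted p under 0.05 there were 9 higher and 0 lower members, and 476 higher and 288 lower of all 11963 genes. The difference was above 0, a smaller fall or a larger rise under erastin, for 37 of the 46 members, against 55.7% of all genes, and below 0 for 9, against 44.3%, with a median of 0.10 against 0.02. It was largest for CDC25C, at 0.31 ± 0.08 (95% interval 0.14 to 0.48, limma adjusted p = 0.684), then for UBE2C (0.28), PTTG1 (0.26), AURKB (0.26) and ESPL1 (0.24), and lowest for KIF18A and ECT2 (−0.13 each). The anaphase class had the highest median, 0.24, with all 5 genes above 0.

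**Figure D4:**
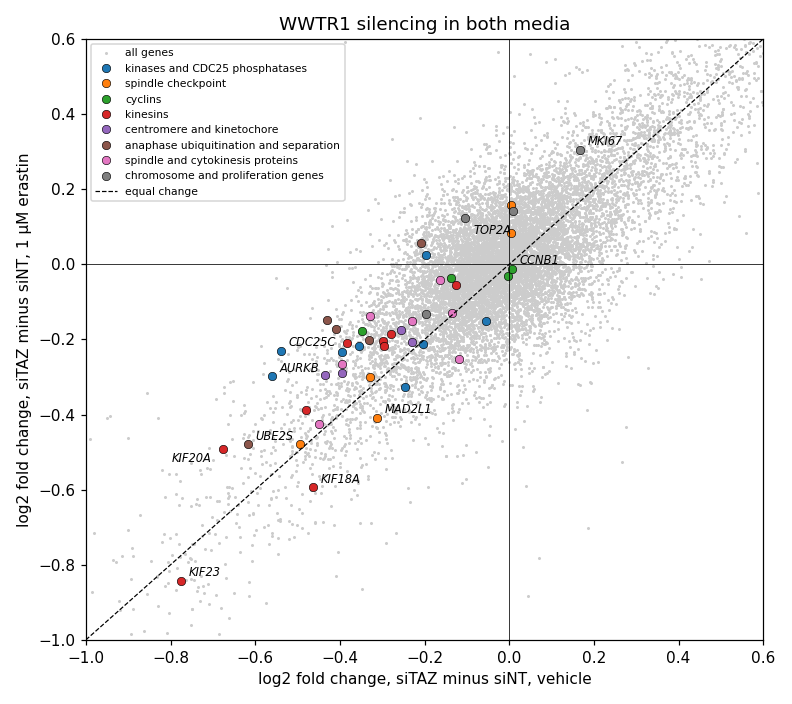
Log2 fold change of siTAZ against siNT with vehicle (x axis) and under 1 µM erastin (y axis) for the 46 genes, coloured by class, over all genes in grey (521 genes lie outside the axes); the dashed line marks equal change. Most members lie in the lower left and above the dashed line, and KIF23 is the lowest in both media.

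None of the members was called for erastin. In siNT cells limma called 0 of the 46 (all genes: 0.276% lower, 0.527% higher), with 12 lower and 0 higher at an unadjusted p under 0.05, against 727 lower and 518 higher of all genes. The values were below 0 for 42 of the 46 against 51.6% of all genes, with a median of −0.09 and a range of −0.29 to 0.09. PLK4 was lowest at −0.29 ± 0.11 (limma adjusted p = 0.349), followed by CCNF at −0.20 ± 0.06 (limma adjusted p = 0.207) and PLK1 at −0.19 ± 0.06 (limma adjusted p = 0.289). The erastin arrays were all below the vehicle arrays for 16 members, against 8.52% of all genes, and all above them for 0, against 5.92%. This comparison shares the siNT vehicle arrays with that of siTAZ with vehicle.

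In siTAZ cells limma called 0 of the 46 for erastin (all genes: 0.1% lower, 0.46% higher), with 2 lower and 2 higher at an unadjusted p under 0.05, against 532 lower and 688 higher of all genes. Here 20 values were below 0, against 45.3% of all genes, and 26 above, with a median of 0.01 and a range of −0.21 to 0.18. KIF23 (−0.21 ± 0.09) and PLK1 (−0.20 ± 0.06) were the lowest. The erastin arrays were all below the vehicle arrays for 6 members, against 9.81% of all genes, and all above them for 6, against 10.9%.

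The average siTAZ effect over both media drew on all 12 arrays, and 33 members fell and 1, MKI67, rose (all genes: 17.9% lower, 19.9% higher), with a median of −0.25. Set against the siNT vehicle arrays, the mean difference over the 46 genes was −0.09, −0.12 and −0.06 on the siNT erastin arrays, −0.26, −0.30 and −0.30 on the siTAZ vehicle arrays, and −0.28, −0.32 and −0.26 on the siTAZ erastin arrays. The siTAZ arrays of the 2 media overlapped in this mean, and those of siNT cells with erastin lay between them and the siNT vehicle arrays.

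Not every call rested on all arrays alike. With vehicle, the fall of NUSAP1 lost its call without any 1 of the 6 arrays (limma adjusted p = 0.0537 to 0.171), and those of FOXM1, MAD2L1, NDC80 and TPX2 without any of 4 of them, MAD2L1 reaching 0.154 without siNT replicate 1 and NDC80 0.158 without siTAZ replicate 3. PLK1 and CDC25B lost their calls without any of 3 arrays, KIF14 without siNT or siTAZ replicate 2 (0.0578 and 0.0518) and PTTG1 without siNT or siTAZ replicate 3 (0.063 and 0.0664). Without siNT vehicle replicate 2 alone, PLK4 (0.0728), KIF15 (0.0607) and KIF18A (0.0507) lost theirs. The other 22 falls with vehicle kept an adjusted p under 0.05 without each array. Under erastin, CCNF, CENPF, ECT2 and ESPL1 lost their calls without any of 5 of the 6 arrays, CDC20 and PLK1 without 4, AURKA without 3, CENPA without siNT replicate 3 (0.0566) or siTAZ replicate 2 (0.0699), and KIF20B without siTAZ replicate 3 (0.0708). The other 15 falls under erastin kept theirs without each array.

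The probe sets of a gene did not always give the same value. Of the 46 members 17 had several, and the second brightest had the same sign as the brightest in 15 with vehicle and in 12 under erastin. All 10 members of this kind that fell with vehicle on the brightest were below 0 on the second as well, and under erastin 5 of 6 were. CDK1 was lower on every probe set with vehicle, at −0.25, −0.42 and −0.43. BUB3 was not settled: its 4 probe sets gave 0.01, −0.22, 0.34 and 0.26 with vehicle, the second called lower and the third called higher when p-values were adjusted over all 19064 probe sets. For MKI67 they gave 0.17, −0.13, 0.15 and 0.43 with vehicle and 0.31, 0.11, 0.23 and 0.33 under erastin. CENPF gave −0.26, −0.08 and 0.30 with vehicle and −0.18, 0.22 and 0.05 under erastin, the third probe set being dim. On the mean of its probe sets the fall of CENPF with vehicle was not called, at −0.01 (limma adjusted p = 0.953), nor was that of BUB1, whose other probe sets are dim, at −0.15 (limma adjusted p = 0.067). BIRC5 gave 0.14, 0.32 and −0.19 under erastin, the second called higher.

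Related lists of the cell cycle were set beside the members. Over all genes, limma called 13.9% lower and 14.7% higher for siTAZ with vehicle, and 12.6% lower and 15.6% higher under erastin. The counts of the lists were not tested against these shares. Of 43 other mitotic genes 23 fell and 1 rose with vehicle and 13 fell and 1 rose under erastin, with medians of −0.22 and −0.13. OIP5, which helps to load CENPA at centromeres, fell more than any member, by 1.49 (SE 0.09, limma adjusted p = 2.63e-07) and 1.38 (SE 0.09, limma adjusted p = 5.52e-07). CENPM, of the inner kinetochore, fell by 0.66 and 0.42, and CDCA8 (borealin), of the passenger complex, by 0.50 and 0.41. INCENP, the scaffold of that complex, named after its values were seen, fell with vehicle by 0.29 and was at −0.28 under erastin (limma adjusted p = 0.0511), so that in the passenger complex AURKB, CDCA8 and INCENP fell with vehicle and BIRC5 was not called. WEE1, the inhibitory kinase of CDK1, fell by 0.38 and 0.41, and its dimmer probe set gave −0.54 and −0.74. SMC4, a condensin subunit, rose by 0.20 and 0.23 on its brightest probe set, while its second gave −0.23 and −0.42.

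The 15 genes of the APC/C core and cohesin had 1 fall and 4 rises with vehicle, 1 fall and 3 rises under erastin, and medians of 0.03 and 0.02. Over all genes, 13.9% were lower and 14.7% higher with vehicle, and 12.6% and 15.6% under erastin. Counts in lists of 15 genes were not tested and are not read as a result about the lists. The APC/C subunit gene ANAPC10 fell by 0.35 and 0.29, whereas ANAPC13 rose by 0.15 and 0.23, ANAPC5 rose by 0.16 and 0.21, and CDC27 rose by 0.22 with vehicle. The cohesin gene SMC1A was at 1.12 ± 0.08 and 1.07 ± 0.08 (called higher in both), but its dimmer probe set gave −0.01 and 0.19. Among 15 regulators of G2 transcription 4 fell and 1 rose with vehicle, and 2 fell and 1 rose under erastin. E2F5 fell by 0.55 and 0.77 and TFDP1, the partner of E2F proteins, by 0.23 and 0.24. MYBL2 fell with vehicle by 0.32 (SE 0.05, limma adjusted p = 0.000832), from 9.42, 9.37 and 9.38 to 9.06, 9.0 and 9.15, and was at −0.16 ± 0.05 under erastin (limma adjusted p = 0.0527). E2F1 fell with vehicle by 0.35 and was at −0.13 under erastin. NFYC, a subunit of NF-Y, rose by 0.19 and 0.18 on its brightest probe set, while its second gave 0.02 and −0.04. CDKN1A (p21), which represses these genes through the DREAM complex, was not called for siTAZ, at 0.08 ± 0.05 and 0.04 ± 0.05. Its group means with vehicle and erastin were 10.17 and 10.41 in siNT cells, and 10.25 and 10.45 in siTAZ cells. For erastin, limma called 0 of the 15 regulators in either kind of cell.

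Of 7 cyclins and kinases of G1, 3 fell and 2 rose with vehicle, and 5 fell and 2 rose under erastin. The shares over all genes were again 13.9% lower and 14.7% higher with vehicle, and 12.6% and 15.6% under erastin. CDK6 fell by 0.57 and 0.90, CDK4 by 0.39 and 0.38 and CCND1 (cyclin D1) by 0.21 and 0.23. CCND2 rose by 1.17 and 0.84 and CCND3 rose by 0.36 and 0.41. CDK2 and MYC were called under erastin, at −0.37 and −0.24. Of 36 genes of replication and S phase, 17 fell and 0 rose with vehicle and 10 fell and 0 rose under erastin, with medians of −0.15 and −0.10. The largest falls were RRM2, a subunit of ribonucleotide reductase, by 0.73 and 0.64, CCNE2 by 0.72 and 0.76 and CCNE1 by 0.45 with vehicle, with RFC2, a clamp loader subunit, at −0.43 under erastin. The second probe set of RRM2, nearly as bright, gave −1.40 and −1.36, and that of CCNE2, which is dimmer, −0.28 and −0.41. For erastin in siNT cells, 3 genes of these lists fell (all genes: 0.276% lower). They were the spindle gene TACC3, by 0.32, CCNE1, by 0.32, and the replication gene GINS1, by 0.26.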

How the data were processed

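Gene expression of 12 RCC4 samples was measured on Affymetrix arrays. The values the authors deposited are log2 signals per probe set; the submitters' processing notes name RMA in Affymetrix Expression Console, with versions and genome build not given in the sources used here. A scaling against siNT that the series text describes is not seen in the values. Of 22277 probe sets, 62 controls, 1043 naming several genes and 2108 naming none were dropped, and the brightest of the remaining 19064 stood for each gene. One limma 3.58.1 fit (R 4.3.3) held the means of the 4 groups, 8 residual and 3.9 prior degrees of freedom, and Benjamini-Hochberg adjustment over 11963 genes at 0.05; it was tested on simulated data. Array number limits the precision. Replicate numbers were not used to pair the arrays in this fit, and the sample titles do not say whether they do. All members were reported, with WWTR1, CDKN1A, MYBL2, E2F1, CCND1 and, from each related list, up to 3 called genes per direction with the largest change in each siTAZ comparison. INCENP, MYC, TACC3 and GINS1 were named outside this rule. The members and lists were chosen with earlier results of these data known. Alternatives covered scaling, low-signal filters, probe set choice, variance models, array weights, the actin control, a replicate block and each array left out. Promoters came from RefSeq GRCh38.p14, with the start listed first for each gene.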

Additional observations from a re-analysis of the deposited data

How the results depend on the processing

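The count of members called for siTAZ was 30 to 37 with vehicle (34 in the fit reported) under another scaling, low-signal filters, other probe sets, other variance models, array weights, the actin covariate, the 2 compared groups alone or the replicate block, and 19 to 33 under erastin (25 reported) apart from the actin covariate, which gave 13. Leaving out 1 array at a time gave 26 to 30 with vehicle, 18 to 23 under erastin and 32 to 35 for the average over both media. With a log2 change of at least 0.5 also required, 5 members were called with vehicle, 2 under erastin and 4 for the average. The shares over all genes were not counted in these settings, so a change in these counts is not read as particular to the members. For erastin in siNT cells 0 were called in every setting except array weights, with 3 (BUB1B, PLK4 and PRC1), and the actin covariate, with 1 (PLK4). For erastin in siTAZ cells and for the interaction 0 were called in every setting run. With the replicate number as a block 33 members were called with vehicle and 22 under erastin. After each gene's group mean was subtracted, the remaining values of same-numbered arrays correlated at -0.417 to 0.356 in 18 pairs, of which 4 were over 0.1. The direction reversed for CENPF under erastin, to 0.03 on the mean of all probe sets and 0.22 on the second brightest, and for the average over both media, to 0.01 and 0.07. It also reversed for BUB1 under erastin, to 0.08 on the second brightest probe set, which is dim, and for the average of MKI67, to -0.01. The cause was not tested. WWTR1 was at -3.03 with the replicate block, -3.04 with centred arrays and -3.3 to -3.62 on its other probe sets.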
